A study of Mus musculus with 99 samples.

Results

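The hippocampus of progranulin-deficient, heterozygous and wild-type mice was compared between 9 and 6 months of age, using the 17 hippocampus arrays of these 2 ages out of the 99 arrays of the study. The study profiled hippocampus, cortex and cerebellum of mice without progranulin with Illumina bead arrays, which measure RNA by hybridisation to probes. Arrays were chosen by region and age in their labels, and the age difference was taken within each genotype, then averaged with equal weight for the 3 genotypes, and taken in knockouts alone. The groups were homozygous Grn knockout (KO, -/-) at 9 months (3 mice, 2 labelled male and 1 female) and KO at 6 months (3 mice, 2 male and 1 female), heterozygous (Het, -/+) at 9 months (3 males) and Het at 6 months (2 males and 1 female), and wild type (WT, +/+) at 9 months (3 males) and WT at 6 months (2 females). Thus age and sex cannot be told apart within WT, and the fitted WT difference rests on a sex term estimated in KO and Het. The mice were untreated, were housed under standard conditions, and no other allele is named in the labels. Strain and the design of the Grn allele are not given in the sources used here.

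Progranulin is a secreted glycoprotein that is also delivered to lysosomes, the organelles in which cells degrade proteins and lipids. In the brain it is made by neurons and, at high levels, by microglia, the resident immune cells. Mice without it are known for microglial activation, complement expression and lipofuscin build-up that advance with age, and the hippocampus, a region needed for memory, is 1 of the regions examined for these changes.

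All levels below are log2 signals after quantile normalization, so a difference of 1 is a factor of 2, and each age difference is 9 minus 6 months, fitted with a sex term, so that it can differ from the difference of the plain means, most of all in WT. Grn itself read 6.81, 6.71 and 6.85 in KO at 9 months, against 6.72, 6.91 and 6.83 in KO at 6 months. It read 7.90, 8.64 and 8.67 in Het at 9 months, against 8.71, 8.71 and 8.62 in Het at 6 months. In WT it read 9.77, 9.59 and 8.91 at 9 months, against 9.33 and 9.56 at 6 months. Every KO array was below every Het array, and every Het array below every WT array, as the genotype labels state. The age difference of Grn over all genotypes was -0.11 ± 0.15 (SE), and the ages overlapped within each genotype.

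Other labels were checked in the same way. The CA1 marker Wfs1 read 9.19 to 10.28 and the dentate granule cell marker Prox1 7.94 to 8.88, whereas Tdo2, listed as a dentate marker, stayed near the floor of the arrays at 6.76 to 7.04. KO 9-month replicate 2 is labelled male but read 8.96 for Xist, the RNA of the inactive X, and 6.83 for the Y-linked Eif2s3y. The other arrays read as their labelled sex. KO 9-month replicate 2 was kept as male in the sex term, on which the fitted WT and KO minus WT values also rest. No fit with this label changed was made. For some genes and lists, not for all, the value without that array is given as well. WT 9-month replicate 3 stood apart in the haemoglobin gene Hba-a1, at 12.16 against 7.70 to 10.09 in the other arrays. Het 9-month replicate 1 and KO 6-month replicate 2 had the lowest median correlation with the other arrays, 0.967 and 0.969, against 0.978 to 0.986 elsewhere. Median probe intensity ran from 201 to 292, and the number of arrays, 2 or 3 a group, limits the precision.

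The first question was which genes differed between 9 and 6 months whatever the genotype. None of 12848 probes passed an adjusted p of 0.05 in limma (0% called), although 435 (3.39%) had an unadjusted p under 0.05, 188 of them higher at 9 months (1.46%) and 247 lower (1.92%). The 435 became 711 without Het 9-month replicate 1 and 775 without WT 6-month replicate 2, and was also more than 1.5 times higher without KO 6-month replicate 1. The closest was Ttc27, a tetratricopeptide-repeat protein gene on chromosome 17, at 1.02 ± 0.15 (SE, limma adjusted p = 0.0782), and it passed under some other settings, among them normexp correction, median scaling and no filter. The median difference of all tested probes was -0.00028.

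Ttc27 passed the threshold in WT alone, where it was the only probe to do so (1 of 12848, 0.00778%). It read 9.59, 9.30 and 9.07 in WT at 9 months, against 7.01 and 6.99 in WT at 6 months. Both 6-month WT arrays lay far below all others, and the WT ages did not overlap. With the sex term, the fitted difference of Ttc27 in WT was 2.68 ± 0.30 (limma adjusted p = 0.0027), and without that term it was 2.32. In KO it read 8.56, 8.69 and 8.62 at 9 months, against 8.49, 8.75 and 9.00 at 6 months, a difference of -0.13 ± 0.21. In Het it read 9.25, 9.22 and 8.38 at 9 months, against 8.29, 8.35 and 9.03 at 6 months, a difference of 0.52 ± 0.22. In both of these genotypes the ages overlapped.

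The same animals were also read in cortex and cerebellum. The 2 WT mice of 6 months read 7.20 and 6.95 for Ttc27 in cortex and 6.94 and 7.07 in cerebellum. Another WT mouse of 6 months, a female like them that has no hippocampus array here, read 9.02 in cortex and 8.97 in cerebellum, among the 9-month WT values. The low Ttc27 level was thus shared by all 3 regions of 2 mice and not by the other WT mouse of their age and sex. The cause was not tested.

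The difference between genotypes was tested directly. Ttc27 was the single probe of 12848 whose age difference in KO differed from that in WT (0.00778% called), lower in KO by 2.81 on the log2 scale (-2.81 ± 0.36, limma adjusted p = 0.0187), and 888 probes (6.91%) had an unadjusted p under 0.05, 516 (4.02%) above and 372 (2.9%) below 0. The 888 became 562 without KO 9-month replicate 1 and 518 without WT 9-month replicate 3. Without KO 9-month replicate 2 the value was -2.96 with an adjusted p of 0.0502, and the call was also lost without each of KO 9-month replicate 1, KO 6-month replicate 3, Het 6-month replicates 2 and 3, WT 9-month replicate 2 and either WT 6-month array. With slide as a fixed block the WT value was 2.70 (adjusted p = 0.44) and the KO minus WT value -2.86 (adjusted p = 0.632); on the 1 slide that held both WT ages the difference was 2.18. The Het minus WT difference of Ttc27, -2.17 ± 0.34, did not pass (adjusted p = 0.157; 0% of probes called, 5.67% with an unadjusted p under 0.05, 3.31% above and 2.36% below 0). No probe passed for KO minus Het (0% called, 12.3% with an unadjusted p under 0.05, 7.25% above and 5.02% below 0). The 1577 probes behind that share became 811 with slide as a fixed block, 918 without KO 9-month replicate 1 and 800 without Het 9-month replicate 1.

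**Figure D1:**
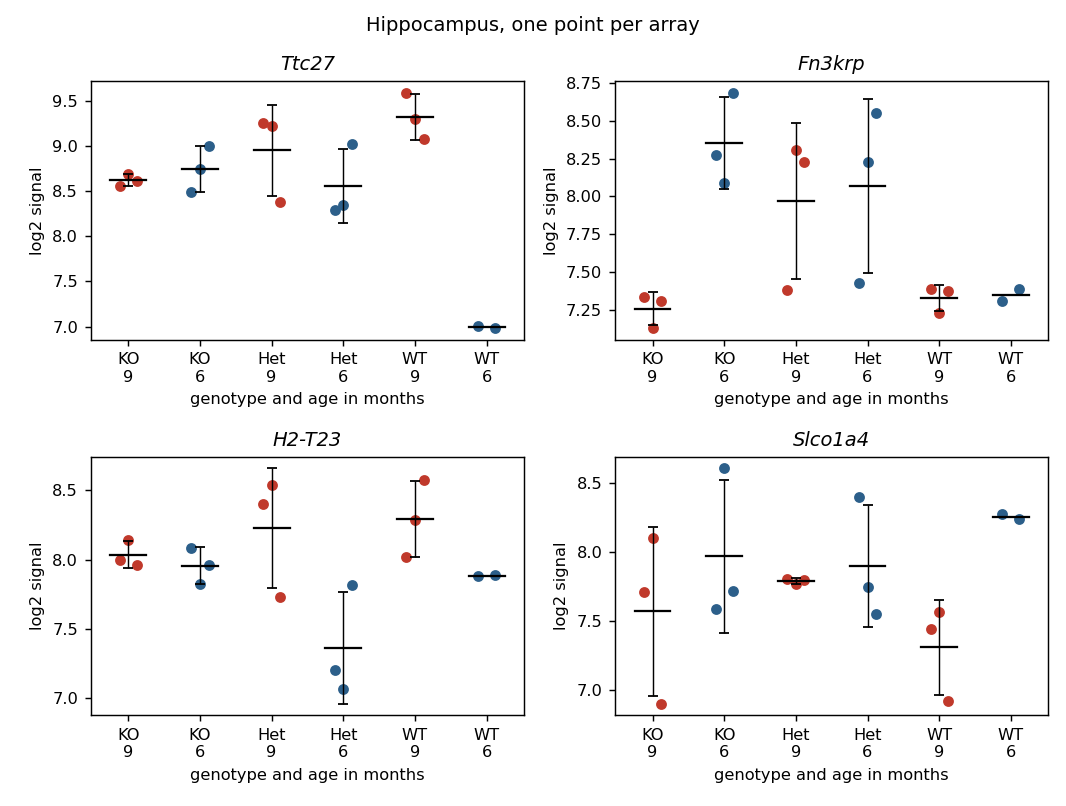
Log2 signal of Ttc27, Fn3krp, H2-T23 and Slco1a4 in each hippocampus array, with genotype and age in months along the axis (9 months in red, 6 months in blue). Bars are the mean and SD of 3 arrays, or the mean alone of 2; the 2 WT arrays at 6 months sit at 7.01 and 6.99 for Ttc27, below all others.

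No other gene reached the threshold over all genotypes, and the 5 next highest and the 6 lowest by p are given as values only, each with an adjusted p of 0.999. H2-T23, which encodes a non-classical MHC class I molecule on chromosome 17, read 8.40, 8.54 and 7.73 in Het at 9 months, against 7.20, 7.07 and 7.82 in Het at 6 months. It read 8.02, 8.28 and 8.57 in WT at 9 months, against 7.88 and 7.89 in WT at 6 months, and in KO 8.0, 8.14 and 7.96 at 9 months, against 8.09, 7.82 and 7.96 at 6 months. The ages separated in WT and overlapped in KO and Het, and the fitted difference over all genotypes was 0.54 ± 0.15, with 0.51 on a second probe. The 2 low Het mice of 6 months were low in every region, at 7.20 and 7.20 in cortex and 7.39 and 7.47 in cerebellum.

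Slco1a4, an organic anion transporter of the blood-brain barrier on chromosome 6, was at the other end. It read 7.71, 8.10 and 6.90 in KO at 9 months, against 7.58, 8.60 and 7.72 in KO at 6 months. In WT it read 7.45, 7.56 and 6.92 at 9 months, against 8.27 and 8.24 at 6 months, and in Het 7.80, 7.77 and 7.79 at 9 months, against 8.40, 7.74 and 7.55 at 6 months. Only the WT ages did not overlap. The plain means were 7.57 and 7.97 in KO at 9 and 6 months, 7.79 and 7.90 in Het, and 7.31 and 8.25 in WT, while the difference fitted with the sex term was -0.40 in KO, -0.32 in Het and -1.58 in WT, or -0.76 ± 0.17 over all genotypes. KO 9-month replicate 3 and WT 9-month replicate 3 were the lowest arrays, and both mice also read 6.94 to 7.01 in cortex and cerebellum. Sspn (sarcospan), another gene of chromosome 6, named after its values were seen, read 6.94 and 6.83 in the same pair of arrays, against 8.62 to 10.08 in all others, and its fitted difference was -1.37 ± 0.38, or -0.90 without KO 9-month replicate 3.

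Among the remaining higher values, Blnk, an adaptor of B-cell receptor signalling, read 7.50, 7.62 and 7.52 in KO at 9 months, against 7.25, 7.22 and 7.29 in KO at 6 months. It read 7.28, 7.53 and 7.32 in Het at 9 months, against 7.18, 7.24 and 7.25 in Het at 6 months, and in WT 7.32, 7.46 and 7.62 at 9 months, against 7.19 and 7.16 at 6 months. The ages did not overlap in any genotype, yet the difference was small, 0.25 ± 0.06, and the signal close to the filter value of 7.29. Mmp17, a membrane-type matrix metalloproteinase, differed by 0.46 ± 0.11, Stxbp2, an exocytosis protein, by 0.64 ± 0.18, and Slc35f3, a solute carrier, by 0.26 ± 0.07.

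Of the lower ones, Slc6a11, the GABA transporter of astrocytes, read 9.41, 8.86 and 9.03 in WT at 9 months, against 10.24 and 9.83 in WT at 6 months. The WT ages were separate, the KO ages overlapped (9.69, 9.23 and 9.31 at 9 months, against 9.67, 9.91 and 9.81 at 6 months), and the difference over all genotypes was -0.50 ± 0.12. Ccdc184, a coiled-coil protein gene, differed by -0.34 ± 0.09. Rit2, a neuronal small GTPase, differed by -0.29 ± 0.08 over all genotypes and by -0.78 ± 0.16 in WT. Relt, a receptor of the TNF receptor family, differed by -0.19 ± 0.05 and the chemokine gene Ccl25 by -0.36 ± 0.09, but a second probe of each went the other way, at 0.10 for Relt and 0.24 for Ccl25.

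KO mice were then taken alone, because their labels give the same sexes at both ages. However, KO 9-month replicate 2, labelled male, read 8.96 for Xist and 6.83 for Eif2s3y. If that label is wrong, the sexes differ between the ages and age is partly mixed with sex in KO too. No probe passed (0% called, smallest limma adjusted p = 0.35), although 1732 probes (13.5%) had an unadjusted p under 0.05, 925 higher at 9 months (7.2%) and 807 lower (6.28%). In Het none passed and 535 (4.16%) had an unadjusted p under 0.05, 2.25% higher and 1.91% lower. In WT 1 passed and 586 (4.56%) had an unadjusted p under 0.05, 1.77% higher and 2.79% lower. With slide as a fixed block these counts were 509 in KO, 606 in Het and 497 in WT. Leaving out 1 array at a time moved the KO count between 863 and 2074, with 863 without KO 6-month replicate 2 and 1049 without KO 9-month replicate 1, and the Het count between 378 and 1194, the last without Het 9-month replicate 3. With array weights, which gave KO 6-month replicate 3 a weight of 6.52, 1110 probes passed the adjustment. The 4 genes at each end of the KO comparison had an adjusted p of 0.35 each and are given as values.

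Hexdc, which encodes a hexosaminidase, read 9.74, 9.66 and 9.60 in KO at 9 months, against 9.17, 8.86 and 8.88 in KO at 6 months. All KO arrays of 9 months were above all of 6 months, by 0.70 ± 0.15, and by 0.38 ± 0.10 on a second probe. Myd88, the adaptor of Toll-like receptor signalling, read 8.40, 8.60 and 8.74 in KO at 9 months, against 8.22, 8.07 and 8.04 at 6 months. Its difference was 0.47 ± 0.11 in KO, -0.04 ± 0.11 in Het and -0.12 ± 0.15 in WT. Dcakd, a dephospho-CoA kinase domain protein whose gene lies near Grn on chromosome 11, read 10.66, 10.54 and 10.76 in KO at 9 months, against 10.17, 9.87 and 10.18 at 6 months (0.58 ± 0.13). Unc45b, a myosin chaperone, differed by 0.29 ± 0.07, but by 0.07 on another probe. Within the 2 slides that held a KO array of each age, Hexdc differed by 0.72 and 0.57, and Myd88 by 0.71 and 0.18.

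At the lower end, Scg5, the chaperone of a prohormone convertase in neuroendocrine cells, read 12.01, 12.15 and 11.85 in KO at 9 months, against 13.26, 13.38 and 12.66 in KO at 6 months. The KO ages did not overlap, and the difference was -1.10 ± 0.24 in KO, -0.16 ± 0.25 in Het and -0.08 ± 0.34 in WT. Pym1, which releases exon junction complexes from mRNA, read 7.41, 7.49 and 7.33 in KO at 9 months, against 8.06, 8.08 and 8.07 at 6 months (-0.66 ± 0.15). Ubn2, a ubinuclein of the histone chaperone machinery, read 7.95, 7.97 and 8.06 in KO at 9 months, against 8.45, 8.44 and 8.34 at 6 months (-0.42 ± 0.10).

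Fn3krp, a kinase that removes sugars bound to proteins, read 7.34, 7.13 and 7.31 in KO at 9 months, against 8.27, 8.09 and 8.68 in KO at 6 months, a difference of -1.09 ± 0.23. In Het it read 7.38, 8.31 and 8.23 at 9 months, against 7.43, 8.23 and 8.55 at 6 months, and all WT arrays read 7.23 to 7.39. Arrays thus lay at either of 2 separate levels, with 1 Het mouse of each age at the low one. Each mouse kept its level in cortex and cerebellum. Hexdc, Dcakd, Unc45b and Fn3krp, 4 of the 8 genes named in KO by smallest p, lie on chromosome 11, as do Grn and 8.82% of the tested probes with a chromosome. Of all probes with an unadjusted p under 0.05 in KO, 8.68% lie there, and of the 30 tested genes near Grn 1 was higher and 1 lower at that p in KO. The cause of the 2 levels was not tested.

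**Figure D2:**
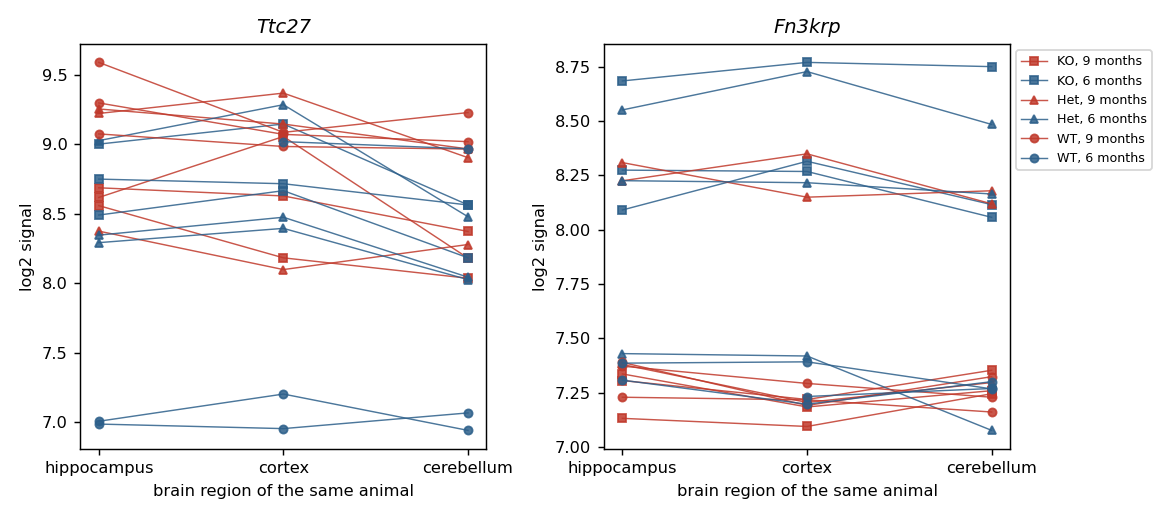
Log2 signal of Ttc27 and Fn3krp in the hippocampus, cortex and cerebellum of each mouse, joined by a line; red is 9 months, blue is 6 months, and symbols mark KO, Het and WT. The Fn3krp lines stay at 1 of 2 levels across regions, and the 2 WT mice of 6 months with low Ttc27 in hippocampus (7.01 and 6.99) are low in cortex (7.20 and 6.95) and cerebellum (6.94 and 7.07).

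Progranulin loss is known for changes in microglia, complement and lysosomes, so these genes were followed next. No member of any of the 39 gene lists passed the adjusted threshold in the step over all genotypes, in KO, in Het or in WT. In a tissue sample, fewer cells of a type and less RNA per cell cannot be told apart. Of 14 tested markers of homeostatic microglia, 11 were higher and 3 lower in KO at 9 months, 4 of them at an unadjusted p under 0.05, where 7.2% of all probes were. The median of the list was 0.08 in KO, -0.08 in Het and 0.14 in WT, beside 0.0095, -0.0058 and -0.0021 for all tested probes. Laptm5, a lysosomal membrane protein of blood-derived cells and microglia, read 11.52, 11.36 and 11.33 in KO at 9 months, against 11.0005, 10.72 and 10.96 in KO at 6 months. Its KO ages did not overlap (0.51 ± 0.16), whereas Het and WT differed by -0.08 ± 0.17 and 0.09 ± 0.23.

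Olfml3, a secreted protein of microglia, was named after its values were seen. It read 8.94, 8.74 and 8.54 in KO at 9 months, against 8.51, 8.16 and 7.97 in KO at 6 months (0.53 ± 0.14), and the KO ages did not overlap. Fcrls, an Fc receptor-like gene of microglia, differed by 0.25 ± 0.09 in KO and Gpr34, a lysophospholipid receptor, by 0.28 ± 0.12. Both were also named after their values were seen. P2ry12, the ADP receptor of homeostatic microglia, went apart between genotypes, at -0.57 ± 0.40 in KO, 1.03 ± 0.41 in Het and 1.80 ± 0.56 in WT. Its KO values were widely spread, 8.14, 8.40 and 9.52 at 9 months, against 8.21, 9.16 and 10.40 at 6 months. The receptor gene Trem2 differed by 0.16 over all genotypes and Tyrobp, its signalling partner, by 0.20.

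Genes of activated microglia had a median of 0.21 in KO, -0.0063 in Het and 0.02 in WT (-0.02 under median scaling), with 9 of 13 tested members higher in KO and 3 at an unadjusted p under 0.05, where 7.2% of all probes were. Lyz2, the lysozyme of macrophages and microglia, read 10.32, 9.82 and 9.69 in KO at 9 months, against 9.14, 9.08 and 9.92 in KO at 6 months. The ages overlapped through KO 6-month replicate 3, which was high; the difference was 0.56 ± 0.26, with 0.13 ± 0.18 on a second probe. Without 1 array at a time it ran from 0.33 to 0.89. On the 2 slides with both KO ages Lyz2 differed by -0.23 and 1.18. In WT, Lyz2 read 9.00, 7.93 and 7.96 at 9 months, against 8.59 and 8.60 at 6 months, and in Het 8.32, 8.19 and 8.19 at 9 months, against 7.84, 7.86 and 7.92 at 6 months. The Het ages were separate at a level far below KO.

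Its neighbour Lyz1, whose sequence is nearly the same so that probes may read both, differed by 0.69 ± 0.30 in KO, and by 0.42 without KO 9-month replicate 1 (0.42 to 0.97 without 1 array at a time). Gpnmb, a glycoprotein of lipid-laden phagocytes, read 8.47, 8.84 and 9.46 in KO at 9 months, against 7.66, 8.13 and 9.29 in KO at 6 months. Again KO 6-month replicate 3 was within the 9-month range, and the difference was 0.57 ± 0.25 in KO and 0.41 ± 0.18 over all genotypes. Without 1 array at a time the KO value ran from 0.30 to 0.93. Slc11a1, a metal transporter of phagosomes, differed by -0.09 over all genotypes.

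Complement genes had a median of 0.21 in KO, with 6 of 6 tested members above 0 and 1 at an unadjusted p under 0.05, where 7.2% of all probes were higher. The median was 0.03 in Het, turning to -0.0037 under median scaling, and 0.20 in WT, turning to -0.24 with slide as a fixed block. C4b, which encodes complement component 4, read 9.93, 9.38 and 9.92 in KO at 9 months, against 9.03, 9.06 and 9.63 in KO at 6 months. The ages overlapped, and the difference was 0.50 ± 0.22 in KO, or 0.64 without KO 9-month replicate 2. In WT it read 9.37, 8.87 and 8.52 at 9 months, against 8.54 and 8.86 at 6 months. Of the C1q chains, which start the classical pathway, C1qc differed by 0.25 ± 0.10 over all genotypes, mostly in Het (0.47 ± 0.15), C1qa by 0.12 and C1qb by 0.17.

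For lysosomal genes the median was 0.12 in KO, where 15 of 20 tested members were above 0 and 1 had an unadjusted p under 0.05, a share below the 7.2% of all probes that were higher at that p, against -0.04 in Het and -0.02 in WT. Psap, the precursor of the saposins and a binding partner of progranulin, read 14.04, 13.97 and 14.00 in KO at 9 months, against 13.82, 13.68 and 13.79 in KO at 6 months. These did not overlap, and the difference was 0.24 ± 0.10. The lysosomal peptidase gene Tpp1 differed by -0.15 over all genotypes, the proton pump subunit gene Atp6v1h by -0.14 and the membrane protein gene Lamp1 by -0.11.

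**Figure D3:**
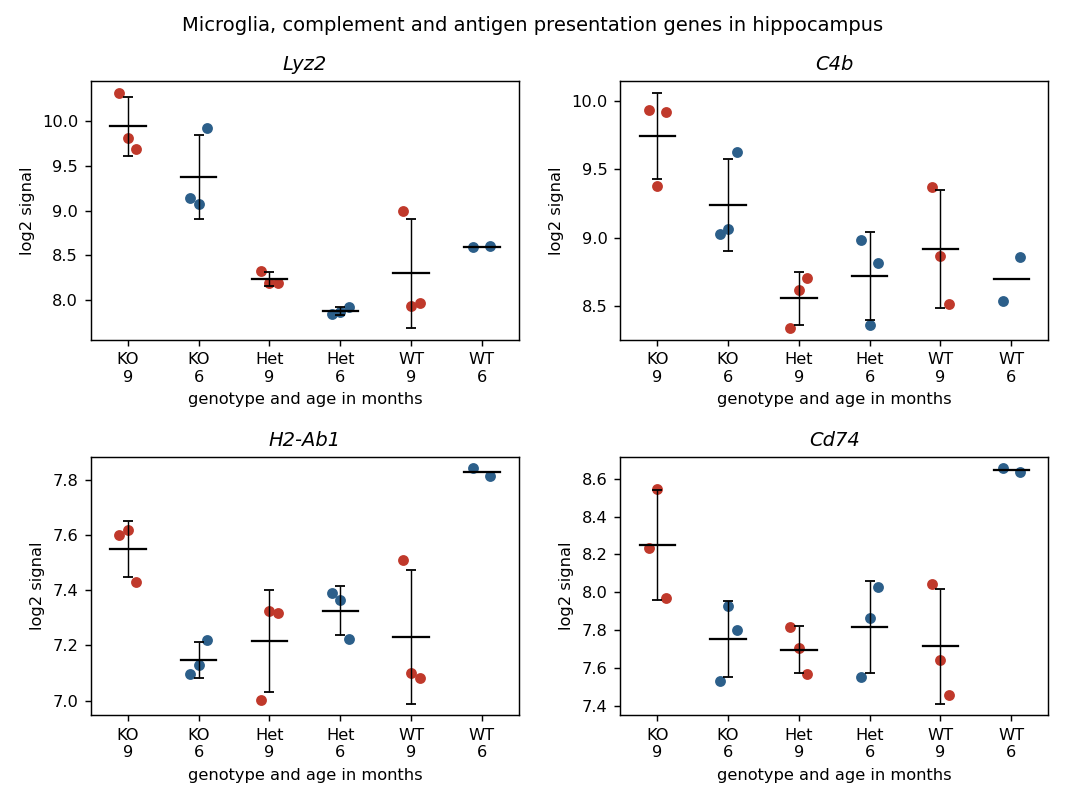
Log2 signal of Lyz2, C4b, H2-Ab1 and Cd74 in each hippocampus array by genotype and age in months (9 months in red, 6 months in blue), with the mean and SD of 3 arrays or the mean alone of 2. H2-Ab1 and Cd74 are higher in KO at 9 months than in KO at 6 months, and in WT the 2 arrays of 6 months (7.84 and 7.81 for H2-Ab1) are above those of 9 months.

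Genes of the interferon response and of antigen presentation lay mostly above 0 in KO and below 0 in WT. Of 13 tested members, 9 were above 0 in KO (median 0.08) and 1 in WT (median -0.17), and the difference of KO and WT was above 0 for 11, with a median of 0.18 beside 0.012 for all probes. The MHC class II chain gene H2-Ab1 read 7.60, 7.62 and 7.43 in KO at 9 months, against 7.09, 7.13 and 7.22 in KO at 6 months. In WT it read 7.51, 7.10 and 7.08 at 9 months, against 7.84 and 7.81 at 6 months. The ages did not overlap in either genotype, and the order was opposite, at a signal close to the filter value of 7.29. The difference was 0.40 ± 0.11 in KO and -0.67 ± 0.16 in WT (limma adjusted p = 0.783), and KO minus WT was 1.07 ± 0.19 (adjusted p = 0.346).

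Cd74, the invariant chain that accompanies MHC class II, was named after its values were seen and had the same order. It read 8.23, 8.55 and 7.97 in KO at 9 months, against 7.53, 7.93 and 7.80 in KO at 6 months. In WT it read 8.05, 7.64 and 7.45 at 9 months, against 8.65 and 8.64 at 6 months. The difference was 0.50 ± 0.17 in KO and -0.94 ± 0.25 in WT, and KO minus WT was 1.44 ± 0.30 (limma adjusted p = 0.716), or 1.20 without KO 9-month replicate 2. In cortex the same 2 WT mice of 6 months read 7.76 and 8.62 for Cd74, so that 1 of them was not high there. These are the 2 females with low Ttc27, and the KO minus WT values of both genes rest on them. Of the other members, Ifit2, an interferon-induced antiviral gene, differed by -0.12 over all genotypes, Ifitm3, another of these, by -0.21, and the class I gene H2-D1 by -0.11.

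Genes of the circadian clock lay mostly below 0 in KO. Clock genes form feedback loops in which the activators switch on their own repressors through E-boxes, and their levels depend on the hour of sampling, which is not given in the sources used here. Of 16 tested members, 5 were above 0 in KO and 4 were lower at an unadjusted p under 0.05, where 6.28% of all probes were. The median was -0.21 in KO, 0.10 in Het and 0.06 in WT, the last turning to -0.03 under median scaling, which moved the median of all probes in WT to -0.10. In KO it was -0.23, with 2 lower, when KO 9-month replicate 2, KO 6-month replicate 2 and Het 9-month replicate 1 were left out, a choice made after seeing the data.

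The clock members that differed most in KO were named after their values were seen. The repressor gene Nr1d2 (REV-ERB beta) read 9.63, 9.59 and 9.25 in KO at 9 months, against 9.87, 10.68 and 9.94 in KO at 6 months. All KO arrays of 9 months were below all of 6 months (-0.67 ± 0.28), while the Het ages overlapped. The KO value was -0.40 without KO 6-month replicate 2, which was the highest array, and -0.46 without the 3 arrays above. Rorb, a nuclear receptor that binds the same elements, read 7.76, 7.85 and 7.65 in KO at 9 months, against 8.08, 7.90 and 8.16 at 6 months. Its difference was -0.30 ± 0.09 in KO and 0.35 ± 0.09 in Het, but 0.01 ± 0.10 in KO on a second probe. Rora, a related receptor, differed by -0.60 ± 0.24 in KO, by -0.33 without KO 6-month replicate 2 and by -0.28 without the 3 arrays. Rora is also in the list of thalamus markers described below, and Rorb in that of cortex markers. The part of neighbouring tissue in their values was not tested. The repressor gene Bhlhe40 differed by -0.55 ± 0.20 in KO, or by -0.70 without KO 9-month replicate 2.

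Per1, a period repressor, differed by -0.44 ± 0.21 in KO and 0.71 ± 0.30 in WT, and its relative Per2 by -0.23 ± 0.10 over all genotypes. The activator gene Npas2 differed by 0.13 over all genotypes and the repressor gene Ciart by -0.13. Because most clock members lay on 1 side in KO, their promoters are described. RefSeq promoters (GRCm38.p6; 250 bases before the start) were found for 14 of the 16 tested clock genes, in 20 windows. The E-box CACGTG, searched on both strands, was in 4 of them (20%), in Ciart, Per1 and Tef, against 6.02% of all 32851 windows. The CCAAT box CCAATC, on both strands and read as GATTGG on the other, was in 13 (65.0%), in 10 genes, against 14.6% of all windows. The CRE TGACGTCA was in none of the 20, against 1.55% of all windows. Other lists were searched too. In windows of immediate early genes the E-box share was 17.6% and the CCAAT box share 5.88%. For heat shock and unfolded protein response genes these were 15.0% and 40.0%, and for glucocorticoid response genes 8.7% and 26.1%. For interferon response and antigen presentation genes they were 0% and 33.3%. A match is a description of these letters and not a bound site. Rora and Bhlhe40, also lower in KO, are not among the 10 genes with a CCAAT box match. A stretch of 3 clock promoters that hold a motif is printed 5′ to 3′ on the gene's strand with the motif in capitals. These are the CCAAT box in Nr1d2 and Rorb, and the E-box in Per1, whose CCAAT box is left in lower case.
Nr1d2, chr14:18239130-18239255, minus strand, motif 89 bases before the start: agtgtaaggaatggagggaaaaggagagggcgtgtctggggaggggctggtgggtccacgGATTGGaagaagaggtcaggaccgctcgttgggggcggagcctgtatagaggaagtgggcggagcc
Rorb, chr19:19111220-19111345, minus strand, motif 89 bases before the start: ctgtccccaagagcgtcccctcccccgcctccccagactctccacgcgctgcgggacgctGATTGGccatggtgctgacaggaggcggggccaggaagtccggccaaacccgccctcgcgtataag
Per1, chr11:69098723-69098848, plus strand, motif 166 bases before the start: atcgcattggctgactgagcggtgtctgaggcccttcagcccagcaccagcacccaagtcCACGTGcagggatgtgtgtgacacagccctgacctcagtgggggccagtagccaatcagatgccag

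Immediate early genes, which neurons switch on soon after activity, lay above 0 in Het and WT but not in KO. Of 14 tested members, 13 were above 0 over all genotypes with a median of 0.19, and none had an unadjusted p under 0.05. The median was 0.08 without KO 6-month replicate 1 and likewise without WT 6-month replicate 1. The median was 0.25 in Het, 0.25 in WT and -0.0035 in KO. Egr1, a transcription factor gene of this kind, read 13.11, 13.40 and 12.94 in Het at 9 months, against 12.93, 12.59 and 12.81 in Het at 6 months. These did not overlap, while the KO ages did, at 12.36, 13.04 and 12.80 at 9 months, against 12.71, 12.52 and 13.06 at 6 months. Homer1, a synaptic scaffold gene, differed by 0.29 over all genotypes, the transcription factor gene Egr4 by 0.38 and the nuclear receptor gene Nr4a2 by 0.34.

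Genes of the glutamatergic synapse had a median of -0.21 in KO, 0.21 in Het and 0.14 in WT over 8 tested members, 2 of them lower in KO at an unadjusted p under 0.05, where 6.28% of all probes were. Slc17a7, the vesicular glutamate transporter of hippocampal and cortical neurons, read 11.16, 11.71 and 11.54 in KO at 9 months, against 12.36, 12.44 and 12.15 in KO at 6 months. These did not overlap (-0.85 ± 0.37), and WT was the other way round, 11.62, 11.78 and 12.76 at 9 months, against 10.95 and 11.05 at 6 months (0.86 ± 0.52). Slc17a7 was named after its values were seen. GABAergic neuron genes had a median of 0.17 in KO, or -0.03 without KO 9-month replicate 2, 0.07 in Het and 0.08 in WT over 12 members. The general neuron list had a median of -0.0060 over all genotypes, with 6 of 12 tested members above 0 and 1 lower at an unadjusted p under 0.05, where 1.92% of all probes were. That member, Stmn2, a microtubule regulator of growing neurons, differed by -0.23 ± 0.08 over all genotypes. By genotype the neuron list had a median of -0.15 in KO, with 5 of 12 above 0, 0.05 in Het and 0.05 in WT. In KO 3 members were lower and 1 higher at an unadjusted p under 0.05, where 6.28% and 7.2% of all probes were.

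Among glia and vessels, astrocyte genes had a median of -0.11 over all genotypes, with 3 of 11 above 0, or -0.04 without KO 6-month replicate 2 and -0.0498 without WT 6-month replicate 1. Aldoc, a glycolytic enzyme of astrocytes, differed by -0.22 ± 0.08. Serpina3n, a protease inhibitor that reactive astrocytes make, read 11.002 to 11.89 in all arrays of 9 months, against 9.24, 11.13 and 11.21 in Het at 6 months and 9.07 and 11.05 in WT at 6 months. It differed by 0.88 ± 0.34 over all genotypes, with 2 low arrays at 6 months. The reactive astrocyte list as a whole had a median of -0.03 over all genotypes, with 3 of 7 tested members above 0, and of -0.0014 in KO. In KO no tested member, Serpina3n included, had an unadjusted p under 0.05, where 13.5% of all probes did. Genes of oligodendrocyte and myelin had a median of -0.11 with 2 of 12 above 0, or 0.04 with 8 above 0 without the 3 arrays named for the clock list and 0.01 without Het 6-month replicate 1, and Tspan2, a tetraspanin of oligodendrocytes, differed by -0.26. Endothelial and pericyte genes had a median of 0.10 in KO, -0.14 in Het and -0.20 in WT over 12 members.

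Respiratory chain genes had a median of -0.05 in KO over 20 members, 4 of them lower at an unadjusted p under 0.05, where 6.28% of all probes were, against 0.06 in Het and -0.01 in WT. Cox5a, a subunit of cytochrome c oxidase, was named after its values were seen. It read 13.10, 13.05 and 13.24 in KO at 9 months, against 13.50, 13.58 and 13.42 in KO at 6 months, without overlap (-0.37 ± 0.11). Ribosomal protein genes had medians of -0.02 in KO, -0.04 in Het and 0.05 in WT over 14 members. The 30 tested genes near Grn on chromosome 11 had a median of -0.03 over all genotypes. Over all 39 lists the KO median lay between -0.29 and 0.23, and the median over all genotypes between -0.26 and 0.19.

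**Figure D4:**
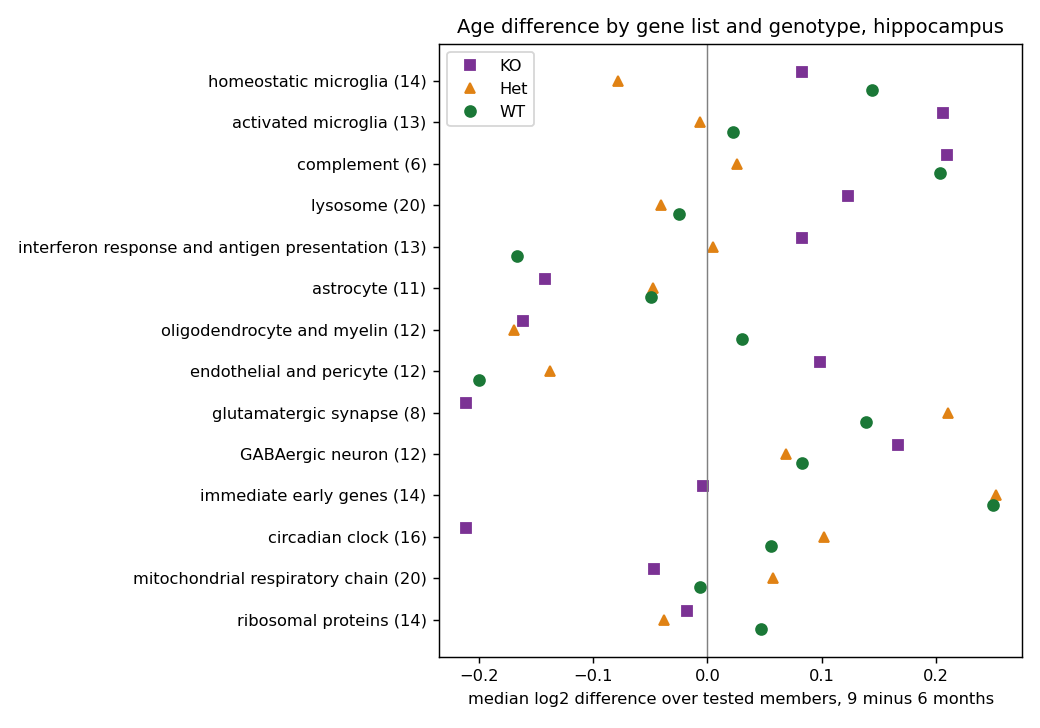
Median log2 difference, 9 minus 6 months, over the tested members of 14 gene lists (number tested in brackets) in KO (squares), Het (triangles) and WT (circles). KO is highest of the 3 for activated microglia and the lysosome (0.21 and 0.12) and lowest for the circadian clock and the glutamatergic synapse (both -0.21).

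Markers of tissue next to the hippocampus were read to see how alike the dissections were. Thalamus markers lay below 0 in 11 of 11 tested genes over all genotypes, with a median of -0.23, but without the 3 arrays named above the median was -0.03 and 4 were above 0. It ran from -0.41 without Het 6-month replicate 2 to -0.04 without KO 6-month replicate 2. With slide as a fixed block it was 0.04. By genotype the thalamus list had a median of -0.29 in KO, where 1 of 11 was above 0, -0.16 in Het and -0.29 in WT. Slc17a6, the glutamate transporter of thalamic neurons, differed by -0.54 ± 0.20, Calb2, the calcium-binding protein calretinin, by -0.59 ± 0.24, and Tcf7l2, a transcription factor of the thalamus, by -0.48. Genes of striatum and hypothalamus had a median of 0.23 in KO, -0.33 in Het and -0.76 in WT, with 0.39 in Het and 0.19 in WT when slide was a fixed block. Their mean level per array ran from 8.24 to 10.64, the highest in WT 6-month replicate 2. Pmch, the hypothalamic hormone precursor, read 7.55, 7.97 and 7.01 in WT at 9 months, against 9.61 and 12.76 in WT at 6 months. These did not overlap, and Pmch ranged from 7.01 to 12.76 over all 17 arrays.

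Choroid plexus genes had a median of 0.12 in KO, -0.67 in Het and 0.38 in WT, and meningeal genes 0.08, -0.02 and -0.46. Within the hippocampus, dentate gyrus granule cells had a median of 0.00059 over all genotypes (-0.03 under median scaling) and CA1 genes 0.13. Both turned sign with the arrays used: the dentate median ran from -0.04 to 0.05 without 1 array at a time, and the CA1 median was -0.04 without KO 9-month replicate 3. Myl4, a myosin light chain gene of the cortex list, differed by 0.78 ± 0.25. The cortex list as a whole had a median of 0.07 over all genotypes, with 7 of 10 tested members above 0. Its median was -0.05 in KO, with 3 of 10 above 0, 0.29 in Het and 0.15 in WT. The markers of neighbouring tissue thus varied among arrays of 1 group as well as between ages, and their part in the gene differences above was not tested.

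**Figure D5:**
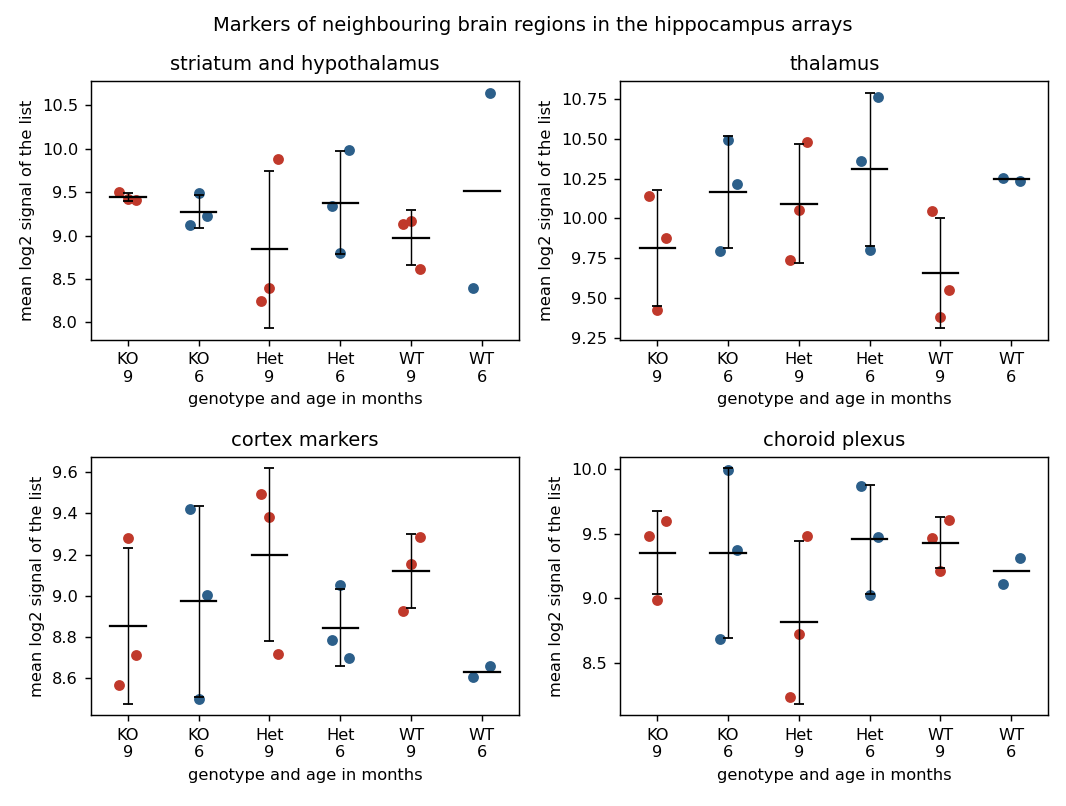
Mean log2 signal of marker genes of striatum and hypothalamus, thalamus, cortex and choroid plexus in each hippocampus array, by genotype and age in months (9 months in red, 6 months in blue), with the mean and SD of 3 arrays or the mean alone of 2. The striatum and hypothalamus list spans 8.24 to 10.64, and the 2 WT arrays of 6 months are at 8.39 and 10.64.

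Finally, the age difference in hippocampus was set against that of cortex and cerebellum in 53 arrays of the same ages, with animal as a random block. No probe passed for the difference between hippocampus and the other 2 regions (0% called, 545 probes or 4.24% with an unadjusted p under 0.05, smallest limma adjusted p = 0.685). In that fit 469 probes (3.65%) had an unadjusted p under 0.05 in hippocampus, 427 (3.32%) in cortex and 1358 (10.6%) in cerebellum. Ttc27 differed between hippocampus and the other regions by 0.31 ± 0.29. None of the hippocampal differences above was shown to be particular to the hippocampus.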

How the data were processed

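RNA of dissected mouse brain regions was hybridised to Illumina mouse bead arrays, and the deposited table holds 1 intensity per probe and array, summarised in BeadStudio, per the submitters' processing notes, with no normalization. The deposited series table holds log2 values, which equal the log2 of these intensities after quantile normalization over all 99 arrays (largest difference 4.97e-14), as checked here. Groups come from the labels' region, genotype and age.

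Intensities were turned to log2 and quantile-normalized over 99 arrays without background correction, and probes with a mean over the 17 arrays above the median (7.29) were kept, 12848 of 25697. limma 3.58.1 (R 4.3.3) was fitted to the 6 combinations of genotype and age, with a sex term, eBayes with trend and Benjamini-Hochberg adjustment over all tested probes (threshold 0.05, two-sided). The labels do not say that arrays are separate litters or batches. The 17 arrays, each of a different mouse, lay on 7 slides. Thus p-values measure the spread between arrays, in which differences between mice and between slides are mixed. Differences are given with their SE. Of the probes, 23978 carry 1 gene symbol and 1719 none; a list uses 1 probe a gene, the brightest. Genes are named by smallest p (6 each way over all genotypes and 4 each way in KO where none passes, up to 4 members a list), by 1 probe, or, where stated, after their values were seen. Members and lists were chosen with earlier results of these data known. The fit was tested on simulated data. Alternatives changed background correction, normalization, filter, sex term, slide, replicate block, array weights and the arrays used. The 2-month arrays were not used.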

Additional observations from a re-analysis of the deposited data

Results flagged for a closer look

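The age difference of Ttc27 between 9 and 6 months differed between genotypes by a direct test, which is why it is listed here. It was lower in KO than in WT by -2.81 ± 0.36 on the log2 scale (SE, limma adjusted p = 0.0187), with the KO difference at -0.13 and the WT difference at 2.68. All 3 WT arrays of 9 months were above both WT arrays of 6 months, and the low level of these 2 mice was also seen in their cortex and cerebellum. Sex was not balanced in WT, where both 6-month mice were female and the 9-month mice male, and its part cannot be told apart from age there. Another WT mouse of 6 months, also female but without a hippocampus array here, read 9.02 in cortex and 8.97 in cerebellum, not at the low level. No group of the hippocampus at these ages has more than 3 arrays, so the test for 1 outlying sample, which needs larger groups, was not run.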

How the results depend on the processing

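Ttc27, called in WT, was called without each array in turn (1 probe every time) and was lost with slide as a fixed block (0 probes); WT had 2 calls with no filter (Klk1b22 besides) and 3 with no sex covariate (Cd83 and Rit2 besides). Over all genotypes 1 probe, Ttc27, passed under normexp, median scaling, quantile normalization of the 17 arrays, no filter, a filter at the 75th percentile, the replicate block and array weights, and 0 to 1 without an array (1 without Het 9-month replicate 3). In KO 1110 probes passed with array weights, which gave KO 6-month replicate 3 a weight of 6.52, and 1 (Actb) in KO arrays alone. KO minus WT gave 0 with slide as a fixed block or with the hippocampus arrays of all ages, 2 without 3 arrays (Ttc27 and Ccn2), and 0 to 5 without an array, the 5 being H2-Ab1 on 2 probes, C2, Timm17b and Ttc27 without WT 9-month replicate 1. Het minus WT gave 1 under median scaling, quantile normalization of the 17 arrays and the replicate block, 2 with no filter, and 0 to 1 without an array (1 without Het 9-month replicate 3). The difference between regions gave 1 with no sex covariate. The cause was not tested. The age difference of Grn, -0.11 over all genotypes, -0.03 in KO and -0.02 in WT, turned sign: over all genotypes 0.0029 without 3 arrays; in KO 0.0499 with slide as a fixed block or without 3 arrays, and -0.087 to 0.014 without an array; in WT 0.0021 under normexp, 0.23 with the replicate block, 0.14 with array weights, and -0.19 to 0.24 without an array. Same-numbered arrays of 2 groups correlated between -0.24 and 0.40 in their deviations from means of 2 or 3 arrays. Deviations from so few arrays cannot show whether the numbers pair them. The replicate block changed no other count of calls. The number of arrays, 2 or 3 a group, limits all comparisons.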

Other observations

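Some gene groups described above only in part or not at all also held members at an unadjusted p under 0.05 in KO. Of all probes 13.5% did. All are given as values chosen after they were seen, and Thy1 is a member of the neuron list. In the list of heat shock and unfolded protein response genes, with a KO median of -0.02 over 18 members, 3 were lower and 1 higher. Hsp90aa1, a cytosolic chaperone, read 8.27, 8.55 and 8.16 in KO at 9 months, against 8.86, 9.64 and 8.86 in KO at 6 months, without overlap (-0.79 ± 0.33). Among 13 genes of cholesterol synthesis, with a KO median of -0.10, 2 were lower and 1 higher. Of these, Dhcr7, which makes the last step to cholesterol, read 8.66, 8.25 and 8.14 in KO at 9 months, against 8.86, 9.32 and 8.80 at 6 months (-0.65 ± 0.20). The ages did not overlap.

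Of the pyramidal cell genes, Wfs1 of CA1 differed by 0.58 ± 0.24 in KO and -0.26 ± 0.25 in Het. The CA3 and CA2 list had a KO median of -0.17, with 3 of 12 tested members above 0, 2 lower and 1 higher at an unadjusted p under 0.05. The higher one, Rgs14, a signalling regulator of CA2, differed by 0.36 ± 0.10 in KO and by 0.16 over all genotypes. Thy1, a surface protein of neurons, read 13.32, 13.39 and 13.34 in KO at 9 months, against 13.58, 13.74 and 13.72 at 6 months. In Het the order was opposite, with 13.67, 13.65 and 13.49 at 9 months, against 13.36, 13.41 and 13.38 at 6 months. The ages overlapped in neither, and KO minus Het was -0.56 ± 0.14 (limma adjusted p = 0.388).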
